A study of Mus musculus with 6 samples.

Results

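The transcription factor p53 (Trp53) and 9 genes of its pathway were followed in the lens of newborn mice with a conditional knockout of Celf1 there. The genes were chosen by name: Trp53 itself, its inhibitors Mdm2 and Mdm4, and the 7 targets Ccng1, Zmat3, Phlda3, Trp53inp1, Aen, Sesn1 and Gadd45a. All 10 were found by symbol among the 13931 genes of the table, and all 10 had an average above 1 log2 CPM (CPM being counts scaled to the size of the library). They were read beside Cdkn1a, which encodes the cyclin-dependent kinase inhibitor p21 and is itself a p53 target, to ask whether other p53 targets changed with it.

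p53 is a transcription factor that is held low in most cells by Mdm2, a ubiquitin ligase that marks it for degradation, and by its relative Mdm4, which blocks its activity. When DNA is damaged or cells are stressed, p53 protein accumulates and switches on genes for cell cycle arrest, DNA repair and cell death, among them Mdm2, which closes a feedback loop. The control is mainly on the protein, so the mRNA of Trp53 need not follow the activity of p53. Celf1 is an RNA-binding protein that recognises GU-rich sequences and affects the splicing, decay and translation of its targets, and its loss from the lens gives cataract in mice.

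RNA was sequenced from P0 lenses in 3 control and 3 Celf1cKO libraries, each from a pool of lenses of mice on a mixed C57BL/6 and FVB background. Celf1cKO animals carried the germline knockout allele Celf1lacZKI, a floxed Celf1 allele and Pax6GFPCre, a Cre that acts in the lens from the placode stage and also in the pancreatic lineage. The controls are labelled Celf1lacZKI/+, whereas the study's methods describe Celf1flox animals without Cre as the usual controls, so the control genotype is not settled here. Neither description places Pax6GFPCre in the controls, and every Celf1cKO animal carried it. Loss of Celf1 and presence of the Cre therefore cannot be told apart in these libraries. The study states that Pax6GFPCre heterozygotes showed no lens defects in earlier work, which used them as controls. The libraries held 40694454 to 44387151 reads on genes. Celf1, the targeted gene, had control levels of 9.95, 9.94 and 9.34 log2 CPM and Celf1cKO levels of 8.93, 7.66 and 7.83, each for libraries 1 to 3, a log2 fold-change of -1.60 (SE 0.335, adjusted p = 0.0269), so its mRNA was reduced and not absent in the Celf1cKO lenses. Of 7 lens fiber markers 6 were in the table and summed to 283630 to 323250 CPM in controls and 223330 to 239700 CPM in Celf1cKO. The 5 lens epithelium markers summed to 442 to 508 CPM in controls and to 370, 145 and 318 CPM in Celf1cKO libraries 1 to 3, and the 5 endothelium markers to 75.1 to 91.0 CPM in controls and to 88.5, 20.6 and 41.9 CPM. In whole lenses, fewer cells of a type and less RNA per cell cannot be told apart. Celf1cKO library 2 lay farthest from the controls on the first principal component, which held 53.4% of the variance.

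A gene was called where the adjusted p (limma, Benjamini-Hochberg over all 13931 genes) was under 0.05, the log2 fold-change was beyond 0.58 in either direction and the average was above 1 log2 CPM, the cut-offs of the study. Of the 10 p53 pathway genes, 5 were called elevated (Trp53inp1, Phlda3, Zmat3, Ccng1 and Mdm2) and 1 was called reduced (Sesn1) in Celf1cKO lenses. Among the 10640 genes above 1 log2 CPM, 6.24% were called elevated and 3.44% reduced. With the adjusted p alone the same 6 genes passed, where 9.82% of the 10640 genes passed as higher and 4.75% as lower. In these 6 genes the control and Celf1cKO libraries did not overlap, 5 higher and 1 lower, where 23.1% of the 10640 genes were higher without overlap and 16.9% lower. The median log2 fold-change of the 10 genes was 0.44, against 0.00 over the 10640. With the libraries scaled by total counts alone, the median of all genes moved up by 0.226 and the calls over all genes went from 664 elevated and 366 reduced to 1665 and 205, while the 6 calls of the 10 genes and their directions were unchanged.

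**Figure D1:**
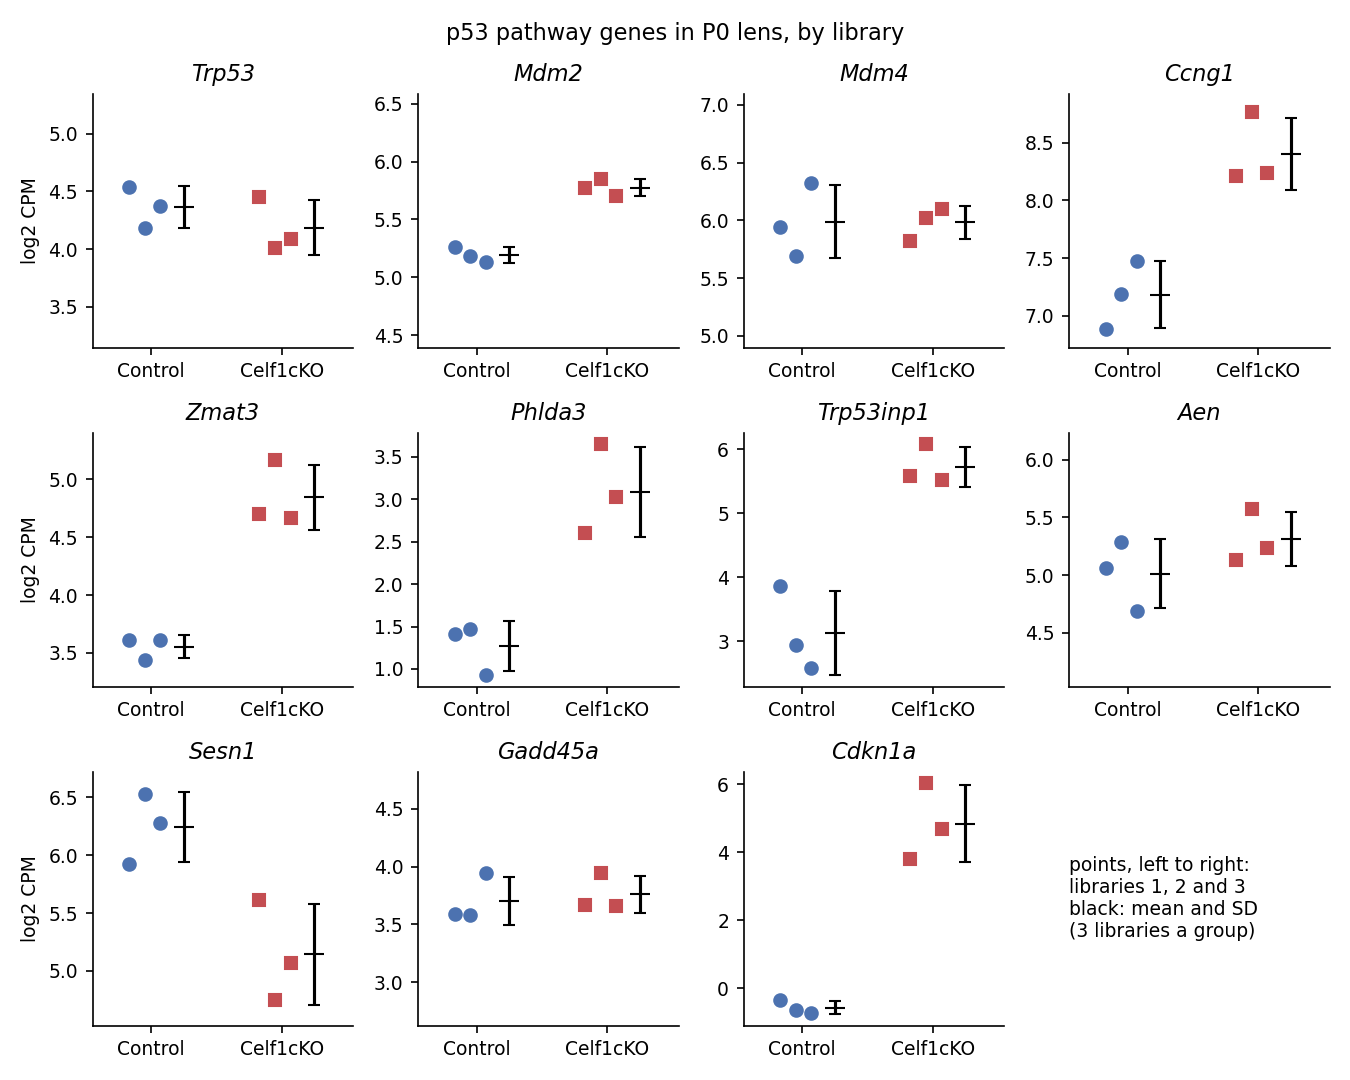
Level of each gene in log2 CPM (y axis, its own range in each panel but at least 2.2 units tall) in the 3 control libraries (blue circles) and the 3 Celf1cKO libraries (red squares), with the mean and SD of each group in black. Celf1cKO squares lie above every control for Mdm2, Ccng1, Zmat3, Phlda3, Trp53inp1 and Cdkn1a, and below every control for Sesn1.

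The factor itself was first examined. Trp53 (ENSMUSG00000059552, GRCm38 chr11:69580359-69591873, + strand) stood at 4.54, 4.18 and 4.37 log2 CPM in the controls and at 4.45, 4.01 and 4.09 in Celf1cKO libraries 1, 2 and 3. The groups overlapped, with Celf1cKO library 1 inside the control range. The log2 fold-change was -0.18 (SE 0.158, adjusted p = 0.480), and the 95% interval ran from 0.684-fold to 1.14-fold of the control level.

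Mdm2 (ENSMUSG00000020184, chr10:117688875-117710758, - strand) was at 5.26, 5.19 and 5.13 log2 CPM in the controls and at 5.77, 5.85 and 5.70 in Celf1cKO. Every Celf1cKO library was above every control, and the spread within each group was small (SD 0.0671 and 0.0755, n = 3 each). Mdm2 was elevated by a log2 fold-change of 0.58 (SE 0.0883, adjusted p = 0.0133), 1.50-fold, a value that only just passed the cut-off. It was no longer called at 0.57 on the log2(CPM + 1) scale or at 0.56 with each library centred on its median, in both cases through the fold cut-off. Mdm4 (ENSMUSG00000054387, chr1:132959484-133030561, - strand), the other inhibitor, was at 5.94, 5.70 and 6.32 log2 CPM in the controls and at 5.82, 6.02 and 6.10 in Celf1cKO. All 3 Celf1cKO values lay inside the control range, with a fold of 0.997 (95% interval 0.763 to 1.30, adjusted p = 0.988).

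Trp53inp1 (ENSMUSG00000028211, chr4:11156431-11174379, + strand) encodes a nuclear stress protein that takes part in apoptosis and autophagy. Its level was 3.86, 2.94 and 2.59 log2 CPM in the controls and 5.58, 6.08 and 5.51 in Celf1cKO. The controls were spread over more than 1 unit, and even so the lowest Celf1cKO library was 1.65 units above the highest control. The log2 fold-change was 2.59 (SE 0.322, adjusted p = 0.00940), 6.04-fold, the largest rise of the 10 genes and rank 14 of the 10640 genes ordered by log2 fold-change, in which Cdkn1a held rank 1.

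Phlda3 (ENSMUSG00000041801, chr1:135766119-135769136, + strand) encodes a small PH-domain protein that competes with Akt for membrane lipids. It was the least abundant of the 10 in counts, at 1.41, 1.47 and 0.93 log2 CPM in the controls and 2.60, 3.65 and 3.02 in Celf1cKO. Celf1cKO library 2 was the highest and all Celf1cKO libraries exceeded the controls. The log2 fold-change was 1.82 (SE 0.302, adjusted p = 0.0153), 3.54-fold.

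Zmat3 (ENSMUSG00000027663, chr3:32334792-32366014, - strand), which encodes a zinc-finger RNA-binding protein, was at 3.61, 3.44 and 3.61 log2 CPM in the controls and at 4.70, 5.17 and 4.67 in Celf1cKO. The controls lay close together and the Celf1cKO libraries at least 1.06 units above them. Zmat3 was elevated by 1.29 on the log2 scale (SE 0.159, adjusted p = 0.00940), 2.45-fold. Ccng1 (ENSMUSG00000020326, chr11:40748552-40755311, - strand) encodes cyclin G1, which brings phosphatase 2A to Mdm2. It was the most abundant of the 10, at 6.89, 7.19 and 7.47 log2 CPM in the controls and 8.21, 8.76 and 8.23 in Celf1cKO, again with no overlap. The log2 fold-change was 1.22 (SE 0.194, adjusted p = 0.0141), 2.33-fold.

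Sesn1 (ENSMUSG00000038332, chr10:41809935-41908424, + strand) moved the other way. It encodes Sestrin 1, a stress protein that restrains the growth kinase complex mTORC1 and whose gene is also a target of FoxO factors. Its level was 5.92, 6.53 and 6.28 log2 CPM in the controls and 5.61, 4.75 and 5.07 in Celf1cKO. No Celf1cKO library reached the lowest control, and library 2 was farthest below it. The log2 fold-change was -1.10 (SE 0.238, adjusted p = 0.0297), so the level fell by 53.4%. Without a variance trend across expression levels it was not called (adjusted p = 0.0724).

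The last pair of targets passed no test. Aen (ENSMUSG00000030609, chr7:78895854-78911209, + strand), which encodes an exonuclease of apoptosis, was at 5.06, 5.29 and 4.69 log2 CPM in the controls and 5.13, 5.58 and 5.24 in Celf1cKO. Only library 2 of the Celf1cKO group exceeded the highest control, and the fold was 1.23 (95% interval 0.919 to 1.65, adjusted p = 0.302). Gadd45a (ENSMUSG00000036390, chr6:67035096-67037457, - strand), a growth arrest and DNA damage gene, was at 3.59, 3.58 and 3.94 log2 CPM in the controls and 3.67, 3.95 and 3.66 in Celf1cKO. The groups overlapped almost completely, with a fold of 1.04 (95% interval 0.810 to 1.33, adjusted p = 0.841). Of its annotated exon bases 337 (19.1%) are shared with E230016M11Rik on the opposite strand, and whether counting used the strand is not given in the sources used here.

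Cdkn1a (ENSMUSG00000023067, chr17:29090976-29100727, + strand) stood at -0.36, -0.65 and -0.72 log2 CPM in the controls and at 3.80, 6.04 and 4.70 in Celf1cKO. Its log2 fold-change was 5.42 (SE 0.511, adjusted p = 0.00888), 42.9-fold with a 95% interval of 18.7 to 98.3, against control libraries with 28, 22 and 22 reads. The rises of Trp53inp1, Phlda3, Zmat3, Ccng1 and Mdm2 were all smaller, 1.50-fold to 6.04-fold. Within Celf1cKO, Cdkn1a was highest in library 2, then 3, then 1, and 3 of the 10 genes had that order (Ccng1, Phlda3 and Aen). Of the 5 called elevated, 2 had it (40%), against 494 of the 664 genes called elevated in the whole table (74.4%). The rest of the 5, Mdm2, Zmat3 and Trp53inp1, were also highest in library 2. Their libraries 1 and 3 lay close together, at 5.77 and 5.70, 4.70 and 4.67, and 5.58 and 5.51 log2 CPM. Library 2 was the highest Celf1cKO library in 532 of the 664 (80.1%).

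**Figure D2:**
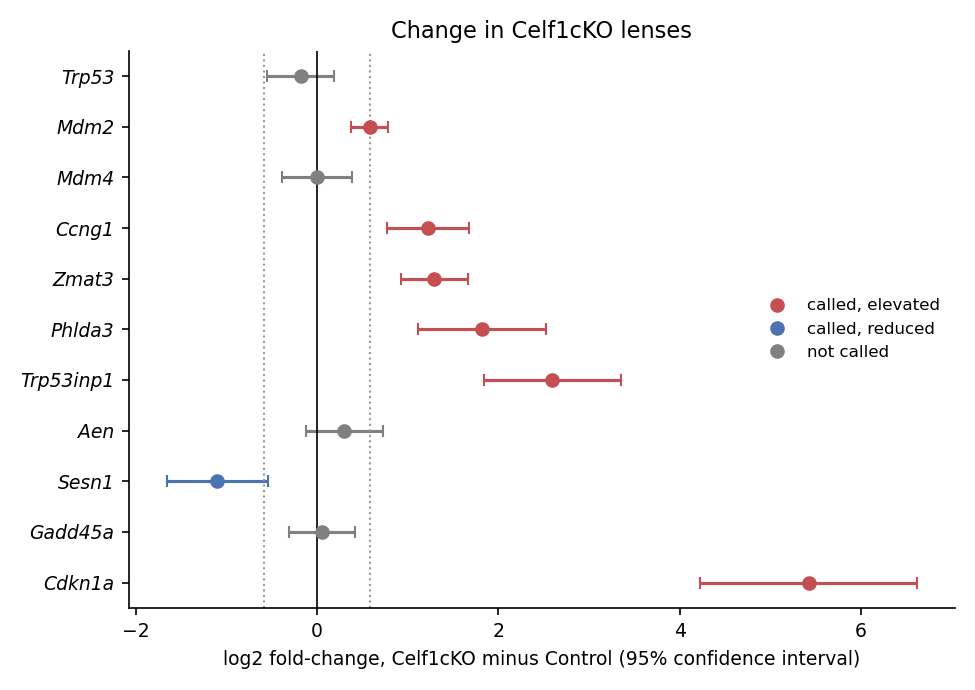
Log2 fold-change of Celf1cKO minus control (x axis) with its 95% confidence interval from limma (bars) for each gene (y axis), coloured by call, and dotted lines at the cut-off of 0.58 in each direction. Cdkn1a lies at 5.42, Trp53inp1, Phlda3, Zmat3 and Ccng1 between 1.22 and 2.59, Mdm2 on the cut-off, and Sesn1 at -1.10.

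These calls rested on few libraries. In the exact permutation test over libraries (two-sided) each of the 6 called genes had p = 0.1, the smallest p that 3 against 3 can give. Leaving out control library 2 or Celf1cKO library 3 left 1 gene called in the whole table and none of the 10, with adjusted p of 0.0512 to 0.107 and 0.0607 to 0.114 for the 6 genes. Cdkn1a also lost its call in these fits (adjusted p = 0.0512 and 0.0607). Without control library 3 the calls of Mdm2, Phlda3 and Sesn1 were lost, and without Celf1cKO library 2 those of Mdm2 and Sesn1. No fold changed direction in the 6 genes. All 3 Celf1cKO libraries were above every control in the 5 elevated genes. The summed lens epithelium markers were below their control range in all 3 Celf1cKO libraries, though Gja1 among them overlapped between the groups. The summed endothelium markers were below their control range in libraries 2 and 3 but not in library 1. The part of these marker shifts in the calls was not tested.

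Levels between genes were compared per kb of annotated exon (log2 CPM per kb). In the controls Ccng1 was highest at 5.37 ± 0.292 (SD, n = 3), then Sesn1 at 4.25 ± 0.303, and neither overlapped its neighbours in the order. Gadd45a, Mdm2, Aen, Trp53 and Mdm4 followed between 2.89 and 2.10, and all neighbours in this stretch overlapped except Mdm2 and Aen. Below a gap came Phlda3 at 0.63, Trp53inp1 at 0.44 and Zmat3 at 0.04, whose neighbours overlapped in turn, and Cdkn1a was last at -2.41 ± 0.190. In Celf1cKO, Ccng1 remained first at 6.59 ± 0.311, Mdm2 was second at 3.43, Trp53inp1 moved from rank 9 to rank 4 of 11 at 3.03, and Cdkn1a from rank 11 to rank 5 at 3.02 ± 1.13. Sesn1, at 3.15 ± 0.437, then overlapped with Mdm2 above it and Trp53inp1 below it.

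**Figure D3:**
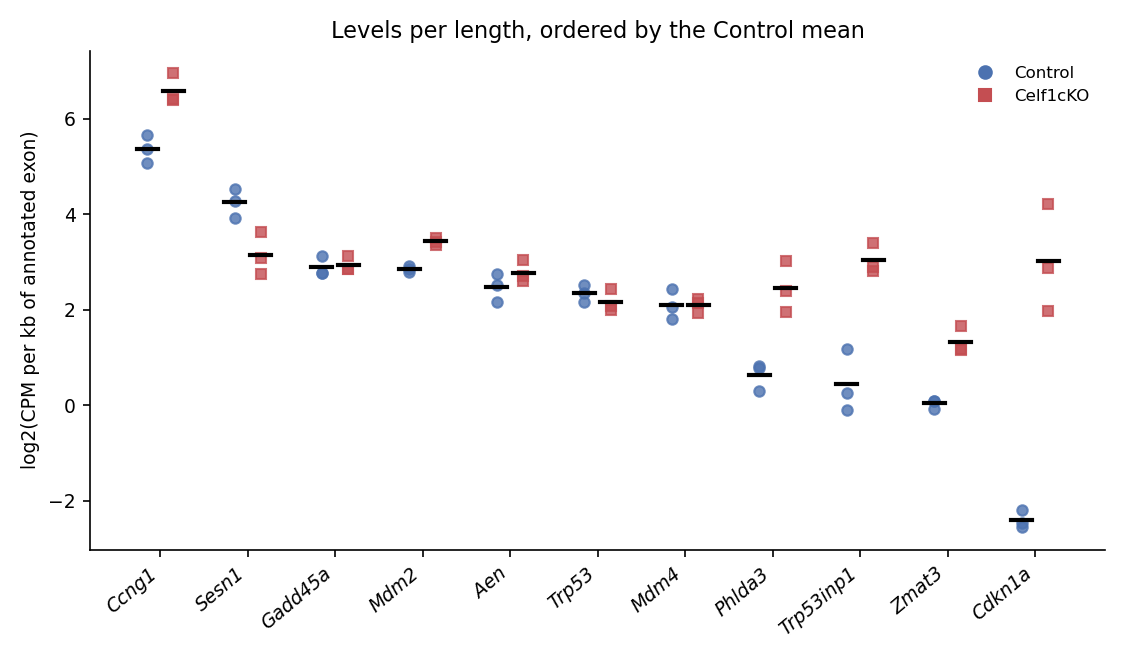
Level of each gene as log2(CPM per kb of annotated exon) (y axis) in the control (blue circles) and Celf1cKO libraries (red squares), with black lines at the group means and the genes ordered by the control mean (x axis). Cdkn1a is the lowest gene in controls at -2.41 and lies at 3.02, among the other genes, in Celf1cKO.

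The sequence around the start of each gene was searched for the p53 half-site. It is the 10-base unit that p53 recognises in pairs and that reads the same on both strands. RefSeq windows on GRCm38 from 250 bases before to 50 bases after a transcript start were found for 8 of the 10 genes, and not for Zmat3 and Trp53inp1. At least 1 half-site without mismatch stood in the windows of 6 of these 8 genes, where 9.55% of the 27025 genes with a window had one. The windows of Phlda3, which was elevated, and Mdm4, which was not, held none. The windows of Trp53, Aen and Gadd45a, which were not called, each held a match. Matches thus stood in the windows of called and uncalled genes alike. The Aen match began after the upstream of its starts and before the other. A pair of half-sites without a gap and with 1 mismatch in all was found for Ccng1 and for the upstream start of Cdkn1a, against 0.211% of genes with a window for a pair with at most 1 mismatch. These 2 elements are shown because they are the closest to a full p53 site, with the 20 bases of the element in capitals, 30 bases each:
Ccng1 (chr11:40755457-40755486, - strand): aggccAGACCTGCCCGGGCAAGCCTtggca
Cdkn1a (chr17:29090923-29090952, + strand): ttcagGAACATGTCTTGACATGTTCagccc
The Ccng1 element began 195 bases before the start at position 40755286, and the Cdkn1a element 51 bases before the upstream start at position 29090979. The other Cdkn1a start lies 2790 bases downstream of that start. Single half-sites, in capitals within 30 bases, are shown for the inhibitor Mdm2, the factor Trp53 and the reduced gene Sesn1:
Mdm2 (chr10:117710925-117710954, - strand): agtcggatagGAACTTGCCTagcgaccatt
Trp53 (chr11:69580274-69580303, + strand): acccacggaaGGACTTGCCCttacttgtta
Sesn1 (chr10:41887256-41887285, + strand): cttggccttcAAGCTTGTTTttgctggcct
The matches began 186 bases (Mdm2), 75 bases (Trp53) and 173 bases (Sesn1, at the downstream of its starts) before the start, and none of the 5 stretches shown overlaps an annotated exon. A match is only a run of letters, and p53 sites outside these windows were not searched. The 7-base GU-rich word UGUUUGU, of the kind Celf1 binds, was present in the annotated 3′ UTR of 3 of the 10 genes (4 times in Zmat3 and once each in Ccng1 and Aen) and not in that of Cdkn1a, and in 26.6% of 12952 genes of the table with a 3′ UTR. It was in 42.9% of the genes called elevated and 25.9% of those called reduced. Their 3′ UTRs had medians of 1365 and 1289.5 bases, against 988 over all. Per kb of 3′ UTR the word stood 0.493 times in genes called elevated and 0.267 times in those called reduced. Over all genes it stood 0.318 times per kb, and in the 10 genes 0.277 times. Other words were not searched, and binding by Celf1 was not tested.

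Next, 38 other p53 targets were read in the same way. In all, 37 were in the table and 33 above 1 log2 CPM, of which 3 (9.09%) were called elevated and 0 reduced, near the 6.24% and 3.44% of the 10640 genes. Plk3, a stress-responsive kinase, rose by 1.53 on the log2 scale (SE 0.386, adjusted p = 0.0455), Bax, which permeabilises mitochondria in apoptosis, by 0.62 (SE 0.125, adjusted p = 0.0249), and Ak1, an adenylate kinase, by 0.61 (SE 0.129, adjusted p = 0.0277). None of the 3 was called without the variance trend or in 5 of the 6 fits with 1 library left out (only the fit without Celf1cKO library 1 kept them), and Plk3 was also lost with log2(CPM + 1) and with limma voom. With the replicate number as a block 5 were called, the others being Ddit4, an inhibitor of mTORC1 (log2 fold-change 1.29, adjusted p = 0.0864 without and 0.0214 with the block) and Bbc3, which encodes the death protein Puma (0.67, adjusted p = 0.0983 and 0.0493). The median of the 33 was 0.38, and 27 were above 0, where 5360 of the 10640 genes were. Of the 33, 15 were higher in Celf1cKO without overlap and 1 lower, where 23.1% and 16.9% of the 10640 genes were. That 1 was Fas, a death receptor, which had the lowest value of the 33 at -0.53 (adjusted p = 0.112). By role, 1 of 10 apoptosis genes, 1 of 4 cell cycle genes, 0 of 6 DNA repair genes and 1 of 13 metabolic and other genes were called, counts too small to set against the 6.24% of all genes, and the DNA repair genes had a median of 0.08.

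Eda2r, a death receptor of the TNF receptor family, was kept out of the calls only by its average of 0.86 log2 CPM and is named because of its value. It had 12, 7 and 3 reads in the controls and 74, 255 and 142 in Celf1cKO, and its log2 fold-change was 3.79 (SE 0.540, adjusted p = 0.0114).

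**Figure D4:**
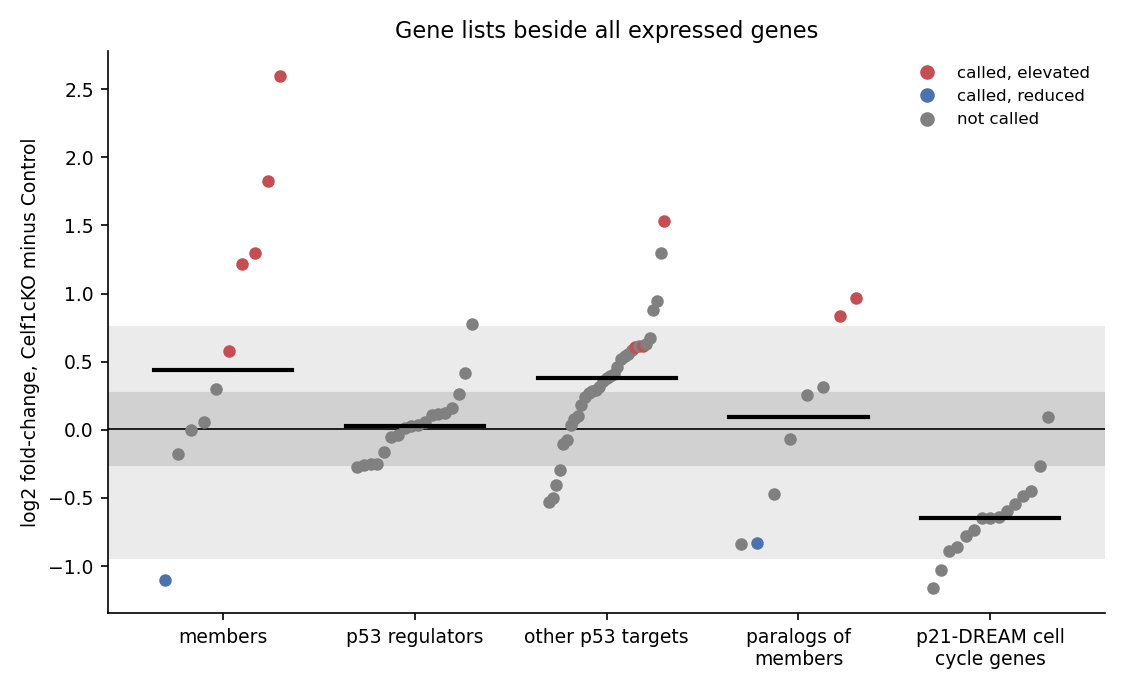
Log2 fold-change (y axis) of each gene above 1 log2 CPM in 5 lists (x axis), with called genes in red (elevated) or blue (reduced), black bars at the list medians, and grey bands for the middle 50% and 90% of all 10640 genes. The p53 regulators centre on 0.03, the other p53 targets on 0.38 and the p21-DREAM cell cycle genes on -0.64, with few or none called.

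The next list held genes that act on p53. Of 21 regulators 20 were in the table and 18 above 1 log2 CPM. By limma voom on the reads, and by the limma fit used for the calls above, 0 were called. In that fit 6.24% of the 10640 genes were called elevated and 3.44% reduced. An unadjusted p under 0.05 (limma) was reached by 2. The share of all genes at that p was not taken, so this count cannot be set against other genes. The median of the 18 was 0.03. Atm, the kinase that signals double-strand breaks to p53, had the highest value of the 18, from 3.90, 4.12 and 4.16 log2 CPM in the controls to 4.38, 5.21 and 4.91 in Celf1cKO. Its groups did not overlap and its log2 fold-change was 0.77 (SE 0.209, adjusted p = 0.0544), just outside the cut-off. Atm was called with the replicate block (adjusted p = 0.0247), with total-count scaling and among expressed genes alone. The study itself lists Atm among its elevated genes linked to cataract. Prkdc, the DNA-dependent protein kinase, had the lowest of the 18 at -0.28 (adjusted p = 0.322).

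Paralogs of the 10 genes did not move as their relatives did in each case. Of 11, 9 were in the table and 8 above 1 log2 CPM, with 2 called elevated and 1 reduced, where 6.24% and 3.44% of the 10640 genes were. Sesn3, a relative of the reduced Sesn1, rose from 8.47, 8.54 and 8.46 log2 CPM in the controls to 9.03, 9.89 and 9.46 in Celf1cKO, by 0.97 (SE 0.198, adjusted p = 0.0252). Sesn2, the other Sestrin, was at 0.32 (adjusted p = 0.295). Trp53inp2, the relative of Trp53inp1, rose by 0.84 (SE 0.155, adjusted p = 0.0193). Zmat1 fell by 0.83 (SE 0.217, adjusted p = 0.0495) and lost its call with the replicate block (adjusted p = 0.0521), while Gadd45g, at -0.84 (adjusted p = 0.0585), was called with it (adjusted p = 0.0328).

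Cell cycle genes that are known to be repressed downstream of p21 through the DREAM complex were read as a further list. All 15 were above 1 log2 CPM. By limma voom, and by the limma fit used for the calls above, 0 were called. In that fit 3.44% of the 10640 genes were called reduced. An unadjusted p under 0.05 (limma) was reached by 6, all 6 lower. The share of all genes at that p was not taken, so this count cannot be set against other genes. The median of the 15 was -0.64, and 14 of 15 were below 0, where 5360 of the 10640 genes were above 0. Of the 15, 6 were lower in Celf1cKO without overlap, where 16.9% of the 10640 genes were. Cdc25c, a phosphatase of mitotic entry, had the lowest value at -1.16 (adjusted p = 0.151) and the cell cycle factor E2f1 the highest at 0.10 (adjusted p = 0.674). With the replicate block Top2a, a DNA topoisomerase, was called (log2 fold-change -1.03, adjusted p = 0.141 without and 0.0406 with the block). In the lens, dividing cells lie in the epithelium. Among the Celf1cKO libraries, 13 of the 15 genes were lowest in library 2, which had the lowest sum of lens epithelium markers at 145 CPM. Library 2 also lay farthest from the controls on the first principal component. It was the highest Celf1cKO library in 532 of the 664 genes called elevated (80.1%). The share of all genes that were lowest in library 2 was not taken. The part of the epithelium in the shift of the 15 genes was not tested.

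Finally, the genes whose levels followed the extremes of the 10 most closely over the 6 libraries were sought among the 10640. The closest to Trp53inp1 were Clns1a (Pearson r = 0.999), Kdm2b (0.998) and Stat3 (0.998), and 1165 genes had r above 0.9. The closest to Sesn1 were Mmab (0.997), Rbfox3 (0.996) and Adra2a (0.994), with 747 genes above 0.9. The 6 points fall into the same 2 groups for every gene, so such values also carry the difference between the groups.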

How the data were processed

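Per the labels and the study's methods, strand-specific libraries were aligned to GRCm38.p6 with STAR 2.7.8a, and uniquely mapped reads were counted per gene with featureCounts 2.0.0. The authors normalised with edgeR and deposited log2 CPM for each library with a small prior count, together with their average log2 CPM. The authors' own log2 fold-changes, F statistics (a score for each gene), p-values and FDR stand in the same deposited table and were not used. The lowest value is the same in all libraries (-4.413), and 100% of the values gave whole reads within 0.1 read once the prior was removed. The table may be part of a longer one.

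The 10 genes and all lists were chosen with earlier results of these data known. All 13931 genes were fitted in R 4.3.3 with limma 3.58.1, letting the prior variance follow the expression level, after a test of the fit on simulated data. edgeR was not run again, since log2 CPM are not counts. Standard errors are moderated, and folds of low genes are understated by the prior. Same-numbered libraries of the groups deviated together (r = 0.259, 0.392 and 0.378), so the number was also used as a block. The labels do not say which animals gave each pool, so p-values measure the spread between these libraries. Named genes were the 10, Cdkn1a, Celf1, the called genes and the extremes of the others in each list, and the 3 closest by correlation to the 2 extremes of the 10. Eda2r, Bbc3 and Top2a were named after their values were seen. Gene positions and exon lengths are from GENCODE M21 (13928 of the 13931 IDs found), and promoter windows from RefSeq (GRCm38). No column of an unmapped sample was present. Alternatives were the block, no variance trend, log2(CPM + 1), total-count scaling, centring, limma voom on the recovered reads, expressed genes alone, the adjusted p alone and each library left out. The macrophage (3 of 5 in the table), retina (3 of 5), pigmented epithelium (3 of 4), red blood cell (1 of 5) and mesenchyme (2 of 4) markers summed to at most 16.7 CPM in any library, and none of 5 cornea or skin epithelium markers was in the table.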

Additional observations from a re-analysis of the deposited data

How the results depend on the processing

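Of the 10 genes, 5 or 6 were called under the 8 alternatives that keep all libraries, and 0 to 6 with 1 library left out. The replicate block changed no call of the 10, and beside those named in the report it changed no other call in the lists. Total-count scaling turned Trp53 to 0.047 and Mdm4 to 0.22, neither called (adjusted p = 0.859 and 0.444). With 1 library left out, Mdm4 ranged from -0.15 to 0.16 and was above 0 without control library 3 or Celf1cKO library 1, and Gadd45a ranged from -0.038 to 0.17 and was below 0 without control library 1, control library 2 or Celf1cKO library 2, all uncalled. Regulators called were 1 with the replicate block, 1 with total-count scaling, 1 among expressed genes alone (Atm each time), and 0 to 1 with a library left out. Other p53 targets called were 5 with the block, 0 without the variance trend, 14 with total-count scaling, 7 with the adjusted p alone, and 0 to 8 with a library left out (0 in 5 of the 6 fits). Paralogs called were 0 without the trend and 0 to 3 with a library left out. p21-DREAM genes called were 1 with the block and 0 to 2 with a library left out. Total-count scaling raises most folds by its construction, and the other causes were not tested. With 3 libraries a group, each library left out removes a large and equal share of the residual degrees of freedom. The calls over all genes still differed by the library left out. They were 1 without control library 2 or Celf1cKO library 3 and 1916 without Celf1cKO library 1, against 1030 with all libraries. The cause of this difference was not tested. Control levels rest on few reads for Cdkn1a (22 to 28) and Eda2r (3 to 12).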
